A study of Mus musculus with 24 samples.

Results

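The hypothalamic transcriptome of mice treated with a PICK1 inhibitor was compared with that of saline-treated mice after libraries holding cortex or pituitary tissue were set aside. In all, 13 of the 24 libraries of the series entered the comparison, 7 of 8 labelled PICK1i and 6 of 8 labelled saline. A PICK1i library was kept when Slc17a7, the vesicular glutamate transporter of cortical neurons, stood below 200 CPM (counts scaled to a library total of 1000000). A saline library was kept when Gh, the growth hormone gene of the pituitary, stood below 1000 CPM. The limits removed PICK1i replicate 6, with Slc17a7 at 248 CPM, and saline replicates 2 and 3, with Gh at 52200 and 31700 CPM. Among the libraries kept, Slc17a7 was highest in saline replicate 6, at 81.9 CPM, and in PICK1i it reached 3.66 CPM. Gh reached 2.44 CPM.

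All mice were male with diet-induced obesity, had a mean weight of 53 g and lived in pairs. The PICK1i group received mPD5 at 56 mg/kg and the controls isotonic saline, once a day for 5 days, and whole hypothalamus was taken 2 h after the last injection. The sample labels name only the target, and the series text pairs mPD5 with PICK1. The protocol gives 6 saline mice while the labels list 8 saline libraries, and no label ties a library to a mouse. The p-values below thus measure the spread between libraries. By library number, the series ran in pairs of consecutive libraries from the same group. With such pairs as a random block in limma-voom, the correlation within a block was 0.29. The main fits and the permutation tests treat each library as independent, so their p-values and standard errors may be too small. Whether these pairs were cage mates was not tested. A further group, 8 libraries labelled PSD-95i (UCCB01-147, 25 mg/kg), is set beside the results where its levels help to place a gene.

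PICK1 is a scaffold protein with a PDZ domain, which binds the tails of membrane proteins, and a BAR domain, which bends membranes. In neurons it holds AMPA receptor subunits, kinases and transporters and moves AMPA receptors between the surface and the cell interior. It also takes part in forming the dense-core granules that carry peptide hormones. The hypothalamus uses such peptides, among them those encoded by Agrp, Npy, Pomc and Cartpt, to set food intake and energy use.

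Total counts ran from 5601717 to 9228858 per library, with a median of 7577662. PICK1i replicates 1, 2 and 5 stood apart from the other 10 libraries in several measures. Mitochondrially encoded genes made up 16.61%, 13.99% and 13.47% of their counts, against 8.70% to 11.2% in the other 4 PICK1i libraries and 9.60% to 10.7% in saline. Their length tilt, the slope of a library's log2 deviations on log2 transcript length, was -0.11, -0.08 and -0.10, so that short transcripts stood relatively high. The tilt was between -0.0068 and 0.0595 in the other PICK1i libraries and between 0.0176 and 0.0449 in saline. On the first principal component, with 28.6% of the variance, they lay at 33.4, 28.1 and 33.0, and the other 10 libraries lay between -18.4 and -0.17. Most values below are therefore given with all 7 PICK1i libraries and again with only the 4 others. PICK1i replicate 6, set aside for cortex, also had a high mitochondrially encoded share, 13.68%. Its length tilt and first component were not computed. Replicates 1 and 2 were libraries 1 and 2, and replicates 5 and 6 were libraries 13 and 14. The 4 others are thus not taken as the typical PICK1i state. The part of RNA quality or handling in these differences was not tested.

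**Figure D1:**
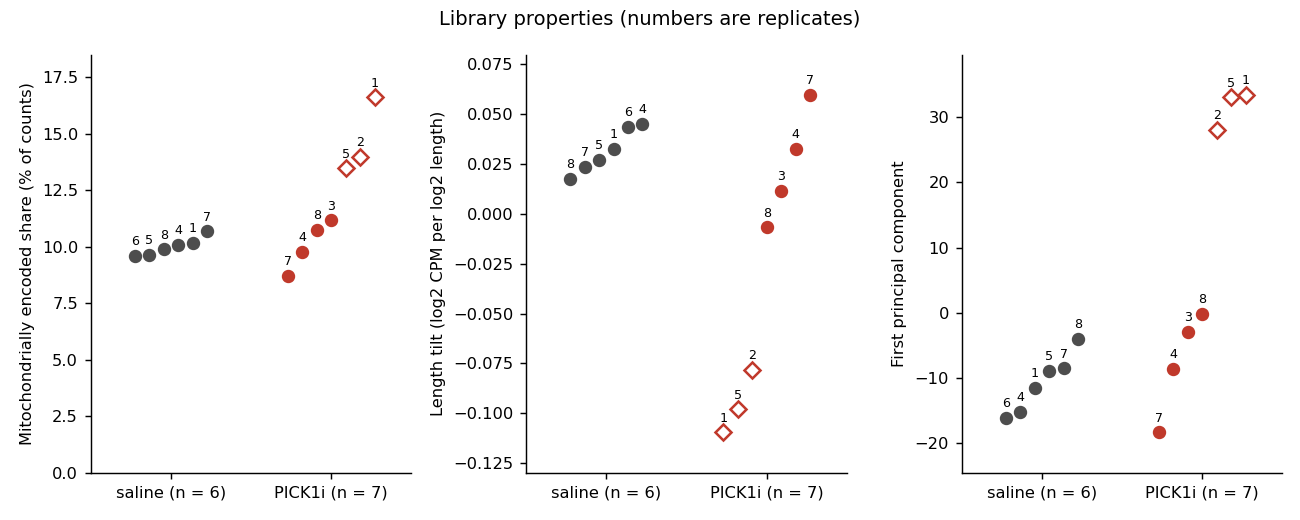
Mitochondrially encoded share of counts (left, percent), length tilt (middle, log2 CPM per log2 length) and first principal component (right) for each of the 6 saline and 7 PICK1i libraries, with replicate numbers. Open diamonds mark PICK1i replicates 1, 2 and 5, which lie away from the other 10 libraries in all 3 panels.

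The mitochondrially encoded share averaged 12.1 ± 2.75% in PICK1i (SD, n = 7) and 10 ± 0.399% in saline (SD, n = 6). The difference of 2.05 percentage points did not pass a two-sided exact permutation test over 1716 splits (p = 0.109), and the groups overlapped. With only the 4 other PICK1i libraries the difference was 0.0874 points (exact permutation p = 0.848). PICK1i replicates 1, 2 and 5 were set apart in part by this same share. That fall was thus largely given in advance, and nothing is read from it. Without PICK1i replicate 7, the library with the lowest share, the difference was 2.61 points (exact permutation p = 0.0173).

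No gene passed the test across all genes. By edgeR's quasi-likelihood test with Benjamini-Hochberg adjustment, 0 of 15407 genes (0%) were called at an adjusted p under 0.05, and the smallest adjusted p was 0.267. At an unadjusted p under 0.05 stood 2440 genes (15.8%), of which 1184 were higher in PICK1i (7.68%) and 1256 lower (8.15%). Their median absolute log2 fold change was 0.26. Those 1184 had a median transcript length of 913.5 bases and those 1256 of 2308 bases, against 1508 for all genes tested. DESeq2 called 5 genes, Esrra, Nefh, Zfp276 and Ahsa1 higher and Prkrir lower, and limma-voom called 0. Among the 4 other PICK1i libraries 0 genes were called, and 1101 had an unadjusted p under 0.05. Leaving out PICK1i replicate 5 alone gave 1480 such genes and leaving out replicate 7 alone gave 3827, with 0 called each time.

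The genes named below are the 12 higher and the 12 lower ones with the smallest p. Every one of them had an adjusted p of 0.267, so their values describe these libraries and are not calls. In 12 of the 24 the PICK1i and saline libraries did not overlap at all, as in 64 of 15407 genes (0.415%). The genes were chosen by p from the same contrast, so nothing is read from that count. In all 24 the sign was the same with the 4 other PICK1i libraries, and in 5 the log2 fold change was at least as far from 0. The choice by p used these 4 libraries too, and in each gene all 7 PICK1i libraries lay on 1 side of the saline median. A kept sign was thus largely given in advance, and nothing is read from it.

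Esrra (ENSMUSG00000024955, chromosome 19 from 6910977 to 6921813 on GRCm38) encodes estrogen-related receptor alpha, an orphan nuclear receptor that drives genes of oxidative metabolism. Its level ran from 24.1 CPM through a median of 27.2 CPM to 28.8 CPM in saline and from 29.2 through 35.2 to 39.99 CPM in PICK1i. Every PICK1i library thus lay above every saline library, replicate 4 being the lowest of them. The log2 fold change of Esrra was 0.40 ± 0.08 (SE), and 0.37 with the 4 other libraries. DESeq2 called Esrra with an adjusted p of 0.0108, within a range of 0.0108 to 0.801 over 27 alternative fits, 2 of which called it.

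Ndufaf6 (ENSMUSG00000050323, chromosome 4 from 11051045 to 11076205) encodes an assembly factor of respiratory complex I. It stood between 4.06 and 5.60 CPM in saline, with a median of 4.86 CPM, and between 5.81 and 9.62 CPM in PICK1i, with a median of 8.06 CPM. The groups did not overlap, and PICK1i replicate 7 came closest to saline. The log2 difference was 0.71 ± 0.13 (SE), against 0.72 with the 4 other PICK1i libraries. Tomm40, the channel through which proteins enter mitochondria, had 46.0, 51.3 and 54.0 CPM as lowest, median and highest saline values and 55.7, 58.7 and 66.7 CPM in PICK1i. It did not overlap either, and its log2 fold change of 0.25 ± 0.06 was 0.18 with the 4 other libraries. Chchd10, a protein of the intermembrane space, ran from 103.6 through 120.6 to 144.2 CPM in saline and from 134.7 through 153.5 to 188.4 CPM in PICK1i. These ranges overlapped, and its log2 fold change was 0.34 ± 0.08, or 0.23 with the 4 others.

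Arc (ENSMUSG00000022602, chromosome 15 from 74669083 to 74672570) is induced by synaptic activity and promotes the removal of AMPA receptors from the surface. Its lowest, median and highest values were 11.5, 14.7 and 16.1 CPM in saline and 18.2, 19.9 and 24.7 CPM in PICK1i, with no overlap. The 3 PICK1i libraries that stood apart held the highest Arc levels, and its log2 fold change of 0.49 ± 0.10 was 0.39 without them. Nefh (ENSMUSG00000020396, chromosome 11 from 4938754 to 4948064) encodes the heavy neurofilament chain of large axons. It ran from 72.8 through 81.3 to 90.0 CPM in saline and from 87.8 through 104.7 to 111.8 CPM in PICK1i, where only replicate 1 fell within the saline range. The fold change on the log2 scale was 0.32 ± 0.07, and 0.33 with the 4 other libraries, where it had the smallest p of the 24 (5.54e-05, adjusted p = 0.432). DESeq2 called Nefh with an adjusted p of 0.0108, within a range of 0.0108 to 0.801 over 27 alternatives, 2 of which called it.

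Uncx, a homeodomain transcription factor, had the largest log2 fold change of the 12, 0.73 ± 0.16, and 0.72 with the 4 other PICK1i libraries. It ran from 3.97 through 6.98 to 9.38 CPM in saline and from 8.95 through 11.3 to 14.3 CPM in PICK1i, so the ranges overlapped at their ends. Taf7, a subunit of the general transcription factor TFIID, stood at 16.7, 18.1 and 19.2 CPM as lowest, median and highest in saline and at 20.6, 23.1 and 26.01 CPM in PICK1i, without overlap. The fitted log2 change was 0.35 ± 0.08 and did not move at 2 decimals with the 4 others. The zinc finger gene Zfp276 (0.40 ± 0.09), the nuclear lamina gene Lmna (0.28 ± 0.07), the splicing-linked gene Prkrip1 (0.32 ± 0.08) and NCBP2-AS2 (0.39 ± 0.09) gave 0.33, 0.19, 0.30 and 0.27 with the 4 others. NCBP2-AS2 lies opposite another gene, and since the use of strand in counting is not given in the sources used here, its reads are uncertain.

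Of the 12 lower genes, 4 showed no overlap between groups. Prkrir, a regulator of the pathway of the RNA-activated kinase PKR, ran from 51.6 through 55.6 to 57.8 CPM in saline and from 39.8 through 43.3 to 51.1 CPM in PICK1i. The difference in log2 terms was -0.32 ± 0.06, and -0.24 with the 4 other libraries. DESeq2 called Prkrir with an adjusted p of 0.0306, the only one of 27 alternatives to do so (0.0306 to 0.801). Mycl (ENSMUSG00000028654, chromosome 4 from 122995652 to 123002485), a MYC family transcription factor, had 7.75, 8.09 and 9.14 CPM as lowest, median and highest saline values and 4.23, 5.50 and 7.08 CPM in PICK1i. On the log2 scale the difference was -0.57 ± 0.12, and -0.47 with the 4 others. Hint3, a histidine triad hydrolase, ran from 3.94 through 5.54 to 6.33 CPM in saline and from 2.39 through 3.49 to 3.92 CPM in PICK1i. All 7 PICK1i libraries were below the lowest saline library, by a narrow margin, and the log2 fold change of Hint3 was -0.66 ± 0.16 with or without the 3 libraries that stood apart. The pseudogene Mrip-ps (-0.59 ± 0.12, and -0.44 with the 4 others) also showed no overlap, but its reads may belong to the gene it copies.

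In the other 8 lower genes the groups overlapped, although all 7 PICK1i libraries lay below the saline median. Gper1, a membrane estrogen receptor, ran from 3.32 through 3.95 to 4.32 CPM in saline and from 1.85 through 2.52 to 3.33 CPM in PICK1i. The log2 difference was -0.61 ± 0.15, and -0.70 with the 4 other libraries, the only one of the 8 farther from 0 there. Nbea, neurobeachin, a large protein of synaptic membrane traffic, stood at -0.45 ± 0.11 and moved to -0.29. The calcium-dependent phosphodiesterase gene Pde1a moved from -0.34 ± 0.08 to -0.22, and the inositol phosphate kinase gene Itpkb from -0.37 ± 0.09 to -0.26. The matrix gene Prelp (-0.47 ± 0.11) and the cell-surface receptor gene Antxr1 (-0.50 ± 0.12) gave -0.41 and -0.40. The macrophage pore protein gene Mpeg1 (-0.47 ± 0.11) gave -0.37 and Ildr2 (-0.37 ± 0.09) gave -0.27.

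**Figure D2:**
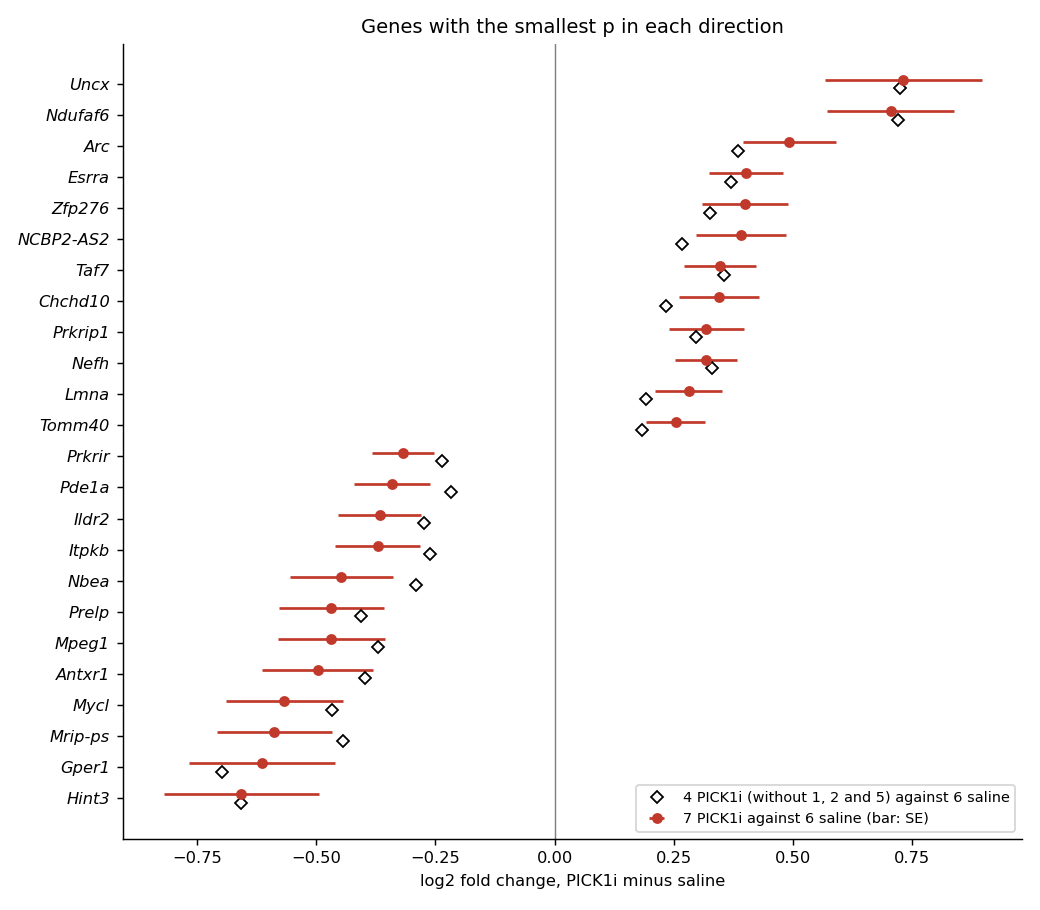
Log2 fold change of PICK1i minus saline for the 24 genes with the smallest p in each direction; filled circles use 7 PICK1i and 6 saline libraries with bars for the standard error, and open diamonds use the 4 PICK1i libraries left without replicates 1, 2 and 5. All diamonds lie on the same side of 0 as their circles, which the choice of genes with these 4 libraries included largely fixed in advance. Those of Uncx, Ndufaf6, Taf7, Nefh and Hint3 lie closest to their circles.

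In 1 fit to the 7 PICK1i, 6 saline and 8 PSD-95i libraries, edgeR called Mycl alone of 15796 genes between PICK1i and PSD-95i (0.00633%). Mycl ran from 7.96 through 8.36 to 10.3 CPM in PSD-95i, above all 7 PICK1i libraries and around the saline levels. It fell by 0.64 ± 0.10 on the log2 scale from PSD-95i to PICK1i (adjusted p = 0.0299). The call was lost without PICK1i replicates 1, 2 and 5, where the difference was -0.54 (adjusted p = 0.546) and 0 genes were called between the inhibitors. With each of the 21 libraries left out in turn the difference stayed between -0.72 and -0.58, with an adjusted p of 0.00294 to 0.118, and Mycl was called in 11 of the 21 fits. The number of genes called between the inhibitors ran from 0 to 2914 over these fits, with 2914 without PICK1i replicate 7, 1449 without replicate 4 and 381 without replicate 8. This contrast has the same PICK1i libraries as the one against saline and is no independent support for it. In the same fit edgeR called 3 genes between PICK1i and saline, Esrra, Nefh and Ndufaf6, each with an adjusted p of 0.0404, and 0 between PSD-95i and saline. Without PICK1i replicates 1, 2 and 5 the fit called 0 genes between PICK1i and saline, and with each library left out it called 0 to 4, except for 1883 without PICK1i replicate 7. Esrra ran from 27.5 through 29.1 to 32.2 CPM in PSD-95i and Ndufaf6 from 4.89 through 5.57 to 6.97 CPM, with medians a little above those of saline. Between the inhibitors their log2 differences were 0.29 ± 0.06 and 0.49 ± 0.11, both with an adjusted p of 0.0593, and 0.25 and 0.50 (adjusted p = 0.753 and 0.713) with the 4 other PICK1i libraries. Nefh had 88.8, 96.2 and 104.3 CPM as lowest, median and highest in PSD-95i. That median lay above the one of saline and below the one of PICK1i, 104.7 CPM. The Nefh difference between the inhibitors was 0.10 ± 0.05 (adjusted p = 0.245). Arc ran from 8.94 through 14.8 to 20.6 CPM in PSD-95i, the widest of the 3 groups.

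**Figure D3:**
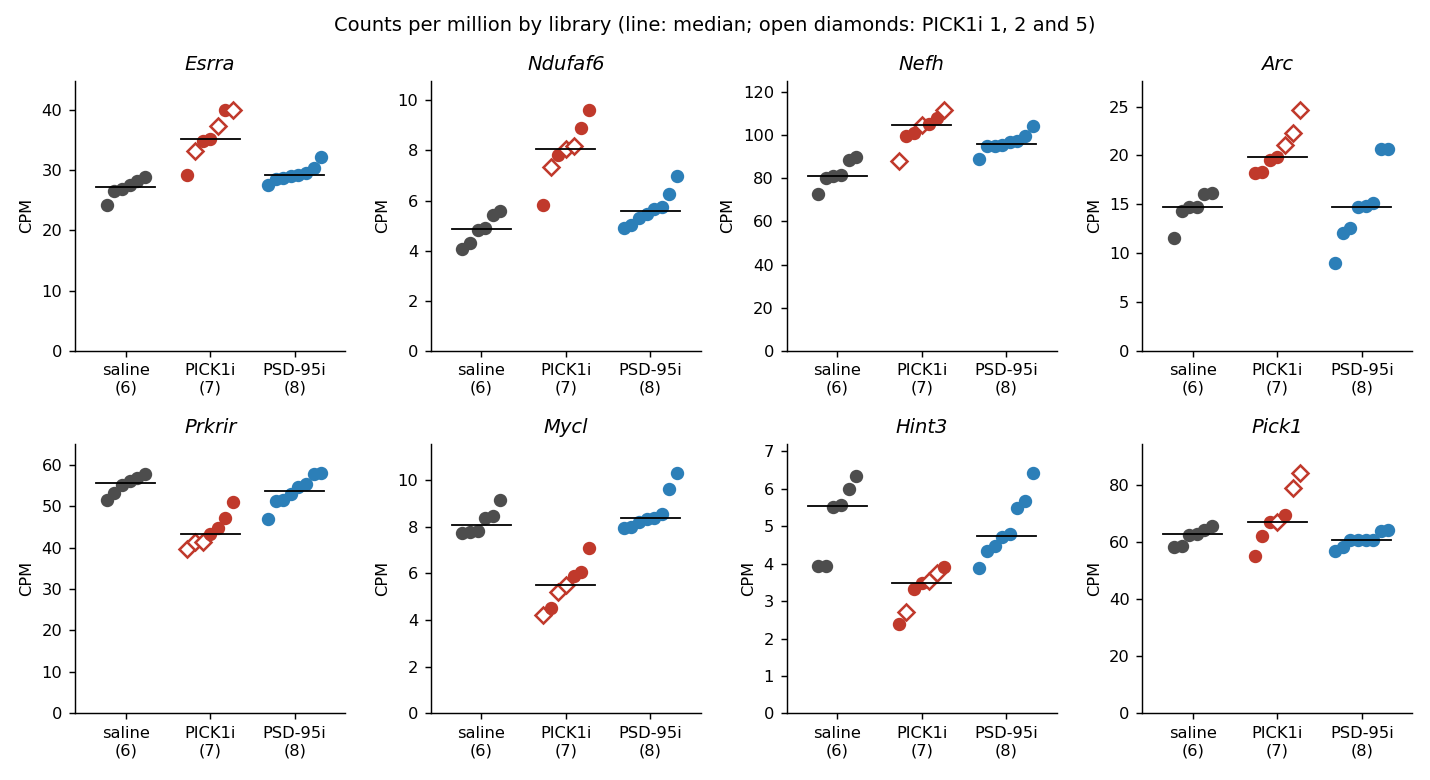
CPM of 8 genes in each saline (grey), PICK1i (red) and PSD-95i (blue) library; the line is the group median and open diamonds are PICK1i replicates 1, 2 and 5. Esrra, Ndufaf6 and Arc do not overlap between saline and PICK1i, Mycl is lower in PICK1i than in both other groups, and Pick1 overlaps throughout.

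The gene lists below give the other genes of each pathway, and counts are at an unadjusted p under 0.05, to be read against 7.68% higher and 8.15% lower over all genes. Over all genes 48.4% had a log2 fold change above 0 and the median was -0.0061. With only the 4 other PICK1i libraries the shares over all genes were 3.34% higher and 3.72% lower. No member of any list passed the test across all genes. Leaving out 1 library could also move a list's count, as in the ribosomal, GABA, energy balance and tanycyte lists below. Of the 44 lists, 6 had medians that changed sign without PICK1i replicates 1, 2 and 5.

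**Figure D4:**
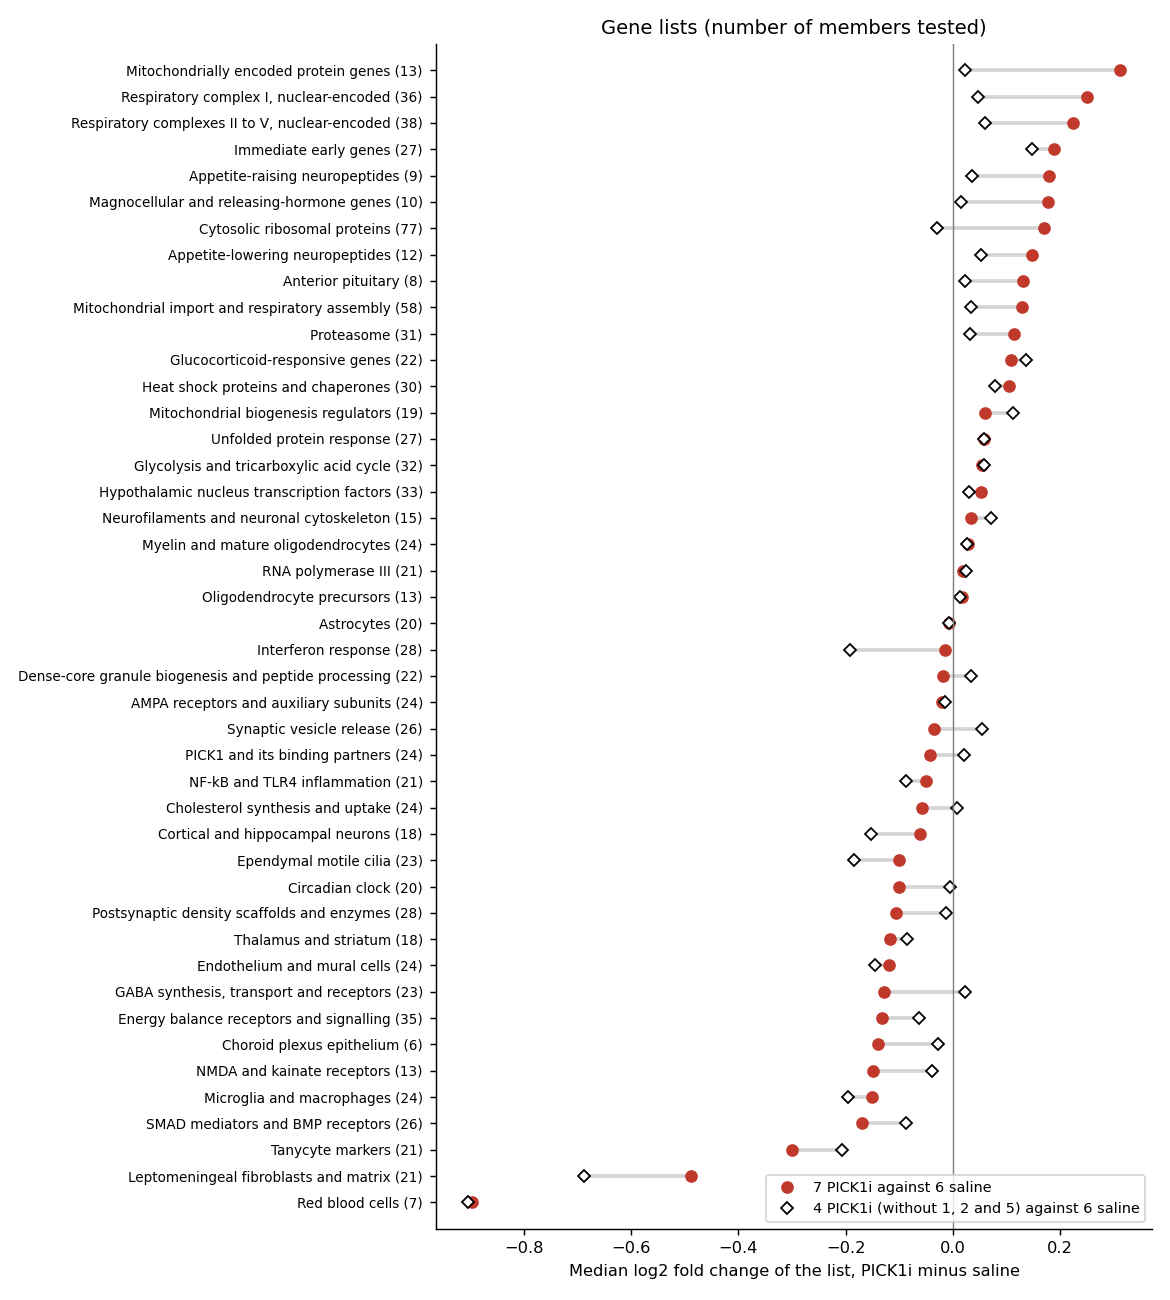
Median log2 fold change, PICK1i minus saline, of the members tested in each of 44 gene lists; red circles use all 7 PICK1i libraries and open diamonds the 4 left without replicates 1, 2 and 5. The respiratory and mitochondrially encoded lists move close to 0, while the medians of immediate early genes, heat shock proteins, microglia and red blood cells move by less than 0.05. Mitochondrially encoded genes were part of what set replicates 1, 2 and 5 apart.

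Respiratory genes had the highest medians. Of 36 nuclear-encoded subunits of complex I, which takes electrons from NADH, 24 were higher and 0 lower, 34 lay above 0 and the median was 0.25. In the 4 other PICK1i libraries 3 were higher, 31 lay above 0 and the median was 0.05. Ndufs5 ran from 44.8 through 52.9 to 56.0 CPM in saline and from 51.9 through 60.7 to 84.5 CPM in PICK1i, and its log2 fold change of 0.38 ± 0.11 was 0.17 with the 4 others. Of 38 subunits of complexes II to V, 26 were higher and 0 lower, 35 lay above 0 and the median was 0.22. With the 4 others 4 were higher, 32 lay above 0 and the median was 0.06. All 13 mitochondrially encoded protein genes lay above 0, and 8 were higher, with a median of 0.31. With the 4 others 7 lay above 0 and 0 were higher, with a median of 0.02. These genes were part of what set PICK1i replicates 1, 2 and 5 apart, so that fall was largely given in advance. The mean deviation of the complex I list was 0.36, 0.25 and 0.34 in PICK1i replicates 1, 2 and 5. In the 4 other PICK1i libraries it was between -0.145 and 0.002, and in saline between -0.208 and -0.05.

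Ribosomal, proteasome and import lists also moved toward or past 0 without these 3 libraries. Of 77 cytosolic ribosomal protein genes 74 lay above 0 and 13 were higher, with a median of 0.17. Leaving out 1 library gave 6 (PICK1i replicate 5) to 40 (PICK1i replicate 7) higher. With the 4 other PICK1i libraries the median was -0.03, 21 lay above 0 and 0 were higher. Of 31 proteasome genes 27 lay above 0 and 10 were higher, with a median of 0.11. With the 4 others 25 lay above 0 and 1 was higher, with a median of 0.03. Leaving out 1 library changed the count of 10 to 3 without PICK1i replicate 1 or 5 and to 17 without replicate 7. Of 58 genes of mitochondrial import and respiratory assembly, 15 were higher and 2 lower with a median of 0.13. With the 4 others 3 were higher and 2 lower, with a median of 0.03. Length tilt as a covariate brought the complex I median to 0.03 and the ribosomal median to -0.07. The tilt was computed from the same tested genes, these lists included, and it sets the same 3 libraries apart. It is thus no check separate from leaving them out.

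Of 19 regulators of mitochondrial biogenesis tested, 1 was higher, Esrra, and 1 lower, the nuclear corepressor gene Ncor1 (-0.13 ± 0.06), with a median of 0.06. Among the 4 other PICK1i libraries 3 were higher and the median was 0.11. Esrrg, the neuron-rich relative of Esrra, ran from 8.70 through 9.70 to 13.6 CPM in saline and from 6.88 through 13.2 to 16.8 CPM in PICK1i. The ranges overlapped widely, and its log2 fold change was 0.31 ± 0.17, against 0.53 with the 4 others. Ppargc1a, the coactivator PGC-1 alpha that works with both receptors, was at 0.03 ± 0.13 and at 0.21 with the 4 others. These 2 values rest on 4 libraries and were not called.

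Heat shock proteins and chaperones, which fold other proteins, counted 6 higher and 1 lower of 30 with a median of 0.11. With the 4 other PICK1i libraries the count was 11 higher and 1 lower, with a median of 0.08. Ahsa1, the activator of the HSP90 ATPase, ran from 120.1 through 127.2 to 130.8 CPM in saline and from 138.8 through 141.5 to 154.7 CPM in PICK1i, without overlap. The fold change on the log2 scale was 0.19 ± 0.05, and 0.18 with the 4 others, and Ahsa1 had an adjusted p of 0.267 by edgeR and of 0.0222 by DESeq2. Dnajb5, an HSP40 family cochaperone, moved from 0.33 ± 0.09 to 0.16, and the heat shock transcription factor gene Hsf4 from 0.30 ± 0.08 to 0.18. The constitutive HSP70 gene Hspa8, named after its values were seen, stood at 0.16 ± 0.07 and 0.16. Of the list's mean deviations, 6 of the 7 in PICK1i lay between 0.02 and 0.07 and replicate 1 at -0.02. Saline lay between -0.118 and -0.015 except for replicate 7 at 0.05.

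Immediate early genes, which neurons switch on within minutes of activity, lay above 0 in 24 of 27 cases, with 5 higher, 0 lower and a median of 0.19. In the 4 other PICK1i libraries 23 lay above 0, 4 were higher and the median was 0.15. Beside Arc, Nr4a2, an orphan nuclear receptor, ran from 7.11 through 9.64 to 12.9 CPM in saline and from 8.53 through 14.6 to 18.1 CPM in PICK1i. The fitted log2 change was 0.52 ± 0.17, and 0.53 with the 4 others, with overlapping groups. The AP-1 subunit gene Junb stood at 0.41 ± 0.14 and 0.29, and the zinc finger gene Egr4 at 0.38 ± 0.16 and 0.41. The list's mean deviation was between -0.22 and -0.07 in 5 saline libraries and between -0.001 and 0.159 in PICK1i. Saline replicate 6, at 0.13, lay among the PICK1i libraries, and it is the saline library with the most Slc17a7. Without it 11 of 27 were higher and the median was 0.22, with 6.23% higher over all genes in that fit. This was the largest count of the 13 fits that left out 1 library. The smallest was 4, without saline replicate 1, saline replicate 5 or PICK1i replicate 2.

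Glucocorticoid-responsive genes, induced by the adrenal stress hormone, counted 5 higher and 1 lower of 22 with a median of 0.11, and 4 higher and 0 lower with 0.14 in the 4 others. Plin4, a lipid droplet protein, ran from 18.7 through 25.8 to 36.5 CPM in saline and from 18.9 through 33.4 to 56.4 CPM in PICK1i. The difference in log2 terms was 0.50 ± 0.20, and 0.61 with the 4 others. The cell cycle inhibitor gene Cdkn1a stood at 0.37 ± 0.14 and 0.41, and Ddit4, an inhibitor of mTOR, at 0.24 ± 0.09 and 0.28. The receptor gene itself, Nr3c1, was the 1 lower member, at -0.26 ± 0.09 and -0.13. Among 15 neurofilament and cytoskeleton genes 5 were higher both ways. Of these, the medium chain Nefm stood at 0.15 ± 0.06 and 0.20, Ina at 0.17 ± 0.07 and 0.16 and the neuronal tubulin gene Tubb3 at 0.25 ± 0.07 and 0.16.

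**Figure D5:**
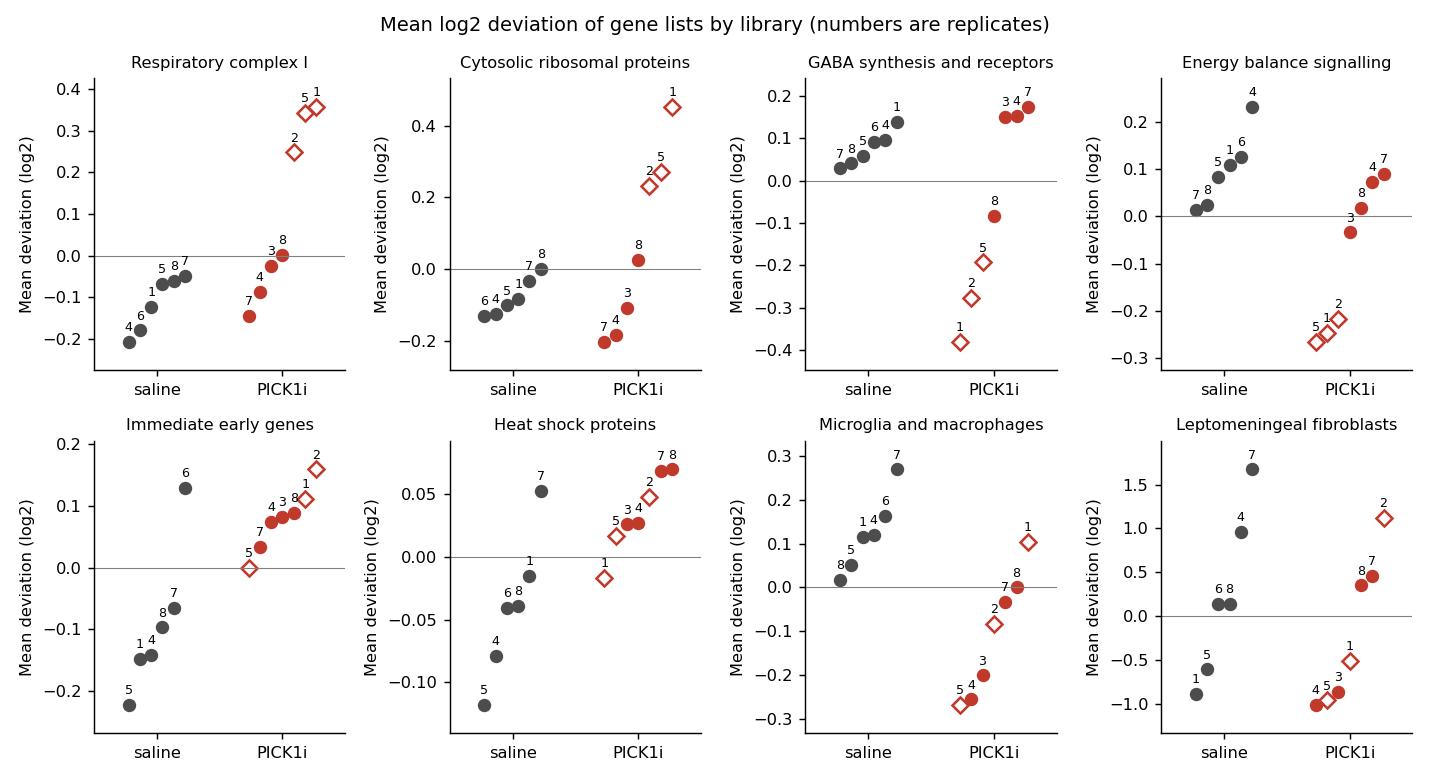
Mean log2 deviation, over the members of each of 8 gene lists, in each saline and PICK1i library with its replicate number; open diamonds are PICK1i replicates 1, 2 and 5. Those 3 libraries hold the extremes of the respiratory complex I, ribosomal, GABA and energy balance lists, while in immediate early genes and heat shock proteins they are spread over the PICK1i range.

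Microglia and macrophage genes, which mark the immune cells of brain tissue, lay below 0 in 23 of 24 cases, and 9 were lower and 0 higher (median -0.15). The 4 other PICK1i libraries again gave 23 below 0 and 9 lower, with a median of -0.20. In bulk tissue fewer cells of a type and less RNA per cell cannot be told apart. Ptprc, the leukocyte phosphatase CD45, ran from 3.57 through 5.98 to 6.48 CPM in saline and from 1.57 through 3.38 to 4.44 CPM in PICK1i. On the log2 scale the difference was -0.74 ± 0.20, and -0.54 with the 4 others. P2ry13, a purine receptor of microglia, ran from 8.82 through 10.4 to 12.6 CPM in saline and from 6.29 through 7.97 to 9.04 CPM in PICK1i, with ranges that overlapped at their ends. The log2 difference was -0.43 ± 0.11 and -0.49. The fractalkine receptor gene Cx3cr1 (-0.24 ± 0.08) and the growth factor receptor gene Csf1r (-0.21 ± 0.08) gave -0.20 and -0.15. The summed level of the list ran from 662.7 to 779.3 CPM in saline and from 583.1 to 776.8 CPM in PICK1i.

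Clec7a, a fungal sugar receptor of activated microglia, was named after its values were seen, because an alternative called it. Its counts were 67 over the 6 saline libraries and 17 over the 7 PICK1i libraries, too few for the filter. It ran from 1.10 through 1.5 to 1.78 CPM in saline and from 0.151 through 0.317 to 0.617 CPM in PICK1i, without overlap. Without the filter its log2 fold change was -2.06 (edgeR adjusted p = 0.0404, the only gene called of 26722). Without saline replicate 8 it passed the filter, through the saline libraries alone, where it is high. Its log2 fold change there was -2.13 (edgeR adjusted p = 0.019), again the only gene called. The fits share nearly all libraries and the gene was named for being called, so these adjusted p-values are no support for a change.

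Beside the microglial list stand the markers of blood, meninges and vessels. Of 7 red blood cell genes 4 were lower and 1 higher with a median of -0.90, and 3 were lower and 0 higher with the same median in the 4 other PICK1i libraries. The beta globin gene Hbb-bs ran from 71.4 through 217.8 to 384.1 CPM in saline and from 77.2 through 107.9 to 176.9 CPM in PICK1i. Their summed level was 348.5 to 1182 CPM in saline and 348.8 to 667.7 CPM in PICK1i, so the saline libraries spread more widely. Leptomeningeal fibroblast genes had a median of -0.49, with 19 of 21 below 0, 2 lower and 0 higher, and of -0.69 with 4 lower in the 4 other PICK1i libraries. They summed to 224.4 to 905.9 CPM in saline and 201.7 to 642.3 CPM in PICK1i. Of 24 endothelial and mural genes 20 lay below 0, 3 were lower and 1 higher, with a median of -0.12, against 2 lower and -0.15 in the 4 others. The median library score of that list was 0.068 in PICK1i and -0.029 in saline, so the order of the groups depends on the summary used. Saline replicate 7 had the highest level of both lists, and without it the leptomeningeal median was -0.03 and the endothelial one -0.0033, while 8 microglial genes were lower and the microglial median was -0.15. No defining marker of these 4 lists was at 0 in all libraries, and their part in the microglial values was not tested.

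Tanycyte genes, which mark the glia lining the third ventricle, counted 8 lower and 1 higher of 21 with a median of -0.30, and 6 lower with -0.21 in the 4 others. Without saline replicate 4 alone 4 were lower. Deptor, an inhibitor of mTOR, ran from 32.6 through 43.6 to 59.8 CPM in saline and from 20.97 through 34.6 to 37.3 CPM in PICK1i. The fold change on the log2 scale was -0.43 ± 0.13, and -0.30 with the 4 others. The matrix collagen gene Col23a1 stood at -0.46 ± 0.16 and -0.50, and the growth factor gene Fgf10 at -0.56 ± 0.20 and -0.37. The 1 higher member was Penk, an enkephalin precursor that neurons also express. Astrocyte and myelin lists had medians of -0.01 and 0.03.

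PICK1, its partners and relatives (24 tested), which include its receptor cargo and the BAR domain proteins ICA1 and arfaptin, counted 0 higher and 2 lower with a median of -0.04. The 2 were the glial glutamate transporter gene Slc1a2 (-0.29 ± 0.11) and the metabotropic receptor gene Grm3 (-0.25 ± 0.10). With the 4 other PICK1i libraries they stood at -0.10 and -0.15, and 0 members were higher or lower. Pick1 itself (ENSMUSG00000068206, chromosome 15 from 79229173 to 79249484) ran from 58.0 through 62.6 to 65.5 CPM in saline and from 55.2 through 67.0 to 84.2 CPM in PICK1i. The PICK1i range enclosed the saline range, and 5 of 7 libraries lay above the saline median. The fitted log2 change was 0.15 ± 0.08 (adjusted p = 0.361), and 0.04 with the 4 others. In PSD-95i it ran from 56.7 through 60.7 to 64.0 CPM.

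Of 24 AMPA receptor and auxiliary subunit genes 1 was higher and 1 lower, with a median of -0.02 both ways. Gria1, the GluA1 pore subunit, ran from 564.7 through 604.7 to 667.1 CPM in saline and from 473.2 through 538.0 to 626.0 CPM in PICK1i. The difference in log2 terms was -0.18 ± 0.07, and -0.07 with the 4 others. Gria2, whose subunit binds PICK1, was at -0.14 ± 0.09 and -0.02, and Gria3 at -0.02 ± 0.06 and 0.06. The auxiliary subunit gene Shisa7 was the 1 higher member, at 0.19 ± 0.09 and 0.13.

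NMDA and kainate receptor genes counted 4 lower and 0 higher of 13 with a median of -0.15, and 2 lower and 1 higher with -0.04 in the 4 others. Grin2b, an NMDA receptor subunit, ran from 129.8 through 145.5 to 175.4 CPM in saline and from 78.2 through 106.7 to 140.7 CPM in PICK1i. On the log2 scale the difference was -0.45 ± 0.12, and -0.31 with the 4 others. Grin2a stood at -0.33 ± 0.10 and -0.19. Of 28 postsynaptic density genes 7 were lower and 0 higher with a median of -0.11, and 2 lower, 1 higher and -0.01 with the 4 others. Among them Dlg4, the gene of PSD-95, ran from 563.1 through 603.7 to 663.7 CPM in saline and from 581.8 through 610.9 to 663.1 CPM in PICK1i, and was at 0.03 ± 0.06 (adjusted p = 0.781). Of 23 GABA genes 5 were lower and 1 higher with a median of -0.13, which turned to 0.02 with the 4 others. Leaving out 1 library gave 0 (saline replicate 1) to 10 (PICK1i replicate 7) lower.

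Beside these receptor lists, of 18 tested markers of cortical and hippocampal neurons 5 were lower and 0 higher with a median of -0.06, and 1 was lower with -0.15 in the 4 other PICK1i libraries. The 5 were Slc17a7, on which the PICK1i libraries were chosen, Rasgrf2, Camk2a, which is also in the postsynaptic density list, Prox1 and Bcl11b. The rule set a limit on Slc17a7 for PICK1i libraries and not for saline. Low cortical markers in PICK1i are therefore in part given by that choice, and nothing is read from this count. Saline replicate 6 had the highest mean deviation of all 13 libraries in the cortical list, 0.71, in the postsynaptic density list, 0.23, and in the NMDA and kainate list, 0.16. Without it 2 cortical markers were lower with a median of 0.03, 3 postsynaptic density genes were lower and 1 higher with -0.09, and 3 NMDA and kainate genes were lower with -0.15. Over all genes that fit had 6.23% higher and 6.24% lower. The part of cortical tissue in the receptor values was not tested further.

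Dense-core granule genes, which package and process peptide hormones, counted 4 higher and 2 lower of 22 with a median of -0.02, and 1 higher with 0.03 in the 4 others. Chga, the granule core protein chromogranin A, ran from 411.0 through 438.7 to 460.0 CPM in saline and from 416.5 through 500.1 to 595.9 CPM in PICK1i. The log2 difference was 0.23 ± 0.07, and 0.11 with the 4 others. Pcsk1n, which makes an inhibitor of a prohormone protease, stood at 0.22 ± 0.09 and 0.21, and the growth factor-induced peptide gene Vgf at 0.17 ± 0.08 and 0.19. Pam, the enzyme that amidates peptides, was at -0.24 ± 0.09 and -0.10.

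The appetite neuropeptides showed wide ranges that overlapped. Agrp, which drives feeding, ran from 2.44 through 3.61 to 6.28 CPM in saline and from 3.25 through 4.07 to 7.56 CPM in PICK1i (log2 fold change 0.37 ± 0.24, adjusted p = 0.438). With the 4 other PICK1i libraries the value for Agrp was 0.14. Npy, made by the same neurons, ran from 23.4 through 41.9 to 63.1 CPM in saline and from 28.1 through 43.7 to 82.0 CPM in PICK1i (0.21 ± 0.22, adjusted p = 0.636). Pomc, the melanocortin precursor that restrains feeding, ran from 76.5 through 120.9 to 152.7 CPM in saline and from 87.7 through 117.9 to 227.4 CPM in PICK1i (0.21 ± 0.22, adjusted p = 0.619). In Npy, Pomc and Cartpt the highest PICK1i library was replicate 1, and in each the sign turned with the 4 others, to -0.14, -0.19 and -0.09. Cartpt ran from 82.7 through 121.1 to 139.8 CPM in saline and from 92.0 through 126.5 to 194.2 CPM in PICK1i (0.20 ± 0.16, adjusted p = 0.522). Of 9 appetite-raising peptide genes 1 was higher, Penk, at 0.26 ± 0.09 and at 0.12 with the 4 others. Of 12 appetite-lowering ones 0 were higher or lower.

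Receptors and signalling genes of energy balance counted 12 lower and 0 higher of 35 with a median of -0.13. Among the 4 other PICK1i libraries 2 were lower and the median was -0.06, and without saline replicate 4 alone 6 were lower. Calcr, the calcitonin receptor through which amylin restrains feeding, ran from 21.7 through 23.9 to 25.4 CPM in saline and from 13.4 through 16.1 to 23.6 CPM in PICK1i. The fold change on the log2 scale was -0.40 ± 0.12, and -0.23 with the 4 others. Glp1r, the receptor of the gut hormone GLP-1, ran from 2.33 through 3.44 to 5.17 CPM in saline and from 0.325 through 1.68 to 3.70 CPM in PICK1i. It stood at -1.03 ± 0.37 and at -0.50 with the 4 others. The transcription factor gene Foxo1, which insulin signalling inhibits, moved from -0.30 ± 0.11 to -0.18, and the insulin signalling adaptor gene Pik3r1 from -0.16 ± 0.06 to -0.10.

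No single transcript passed the test either. By edgeR 0 of 36178 transcripts (0%) were called, the smallest adjusted p was 0.332, and 4883 (13.5%) had an unadjusted p under 0.05. DESeq2 called 0 and limma-voom 0, and with the 4 other PICK1i libraries 0 were called and 2085 had an unadjusted p under 0.05. Leaving out PICK1i replicate 5 gave 2945 such transcripts and leaving out replicate 7 gave 7933. The 6 transcripts with the smallest p came from Esrra, Uncx, Nefh, Plxnb1, Mrip-ps and Tcf7l2. Esrra's was ENSMUST00000025906, at 0.42 ± 0.09 and at 0.37 with the 4 others, which ran from 21.7 through 25.4 to 27.5 CPM in saline and from 27.4 through 32.7 to 38.1 CPM in PICK1i. A short Plxnb1 transcript of 585 bases, ENSMUST00000130366, ran from 2.32 through 3.65 to 3.87 CPM in saline and from 0.823 through 1.63 to 2.22 CPM in PICK1i. It was at -1.02 ± 0.22 and at -0.93 with the 4 others, while the whole gene, a semaphorin receptor, was at -0.18. A transcript of Tcf7l2, a mediator of Wnt signals, was at -0.88 ± 0.19 and its gene at -0.50, and with the 4 others the transcript was at -0.66.

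Use of transcripts within a gene was tested for 8102 genes, and 0 (0%) were called, with 262 (3.23%) at an unadjusted p under 0.05. That number was 79 with the 4 other PICK1i libraries and 798 by a gene-level F test, and leaving out 1 library gave 124 (saline replicate 6) to 678 (PICK1i replicate 7), with 0 called each time. Among the 10 genes with the smallest p were Rian, Suv39h1, Eef1a1, Cltc, Hgs, Lmtk3, Slc25a25, Ptpn11 and Plxnb1, all with an adjusted p of 1. In Plxnb1 the 585-base transcript made up 1.33% to 2.31% of the gene's counts in saline, with a median of 1.98%, and 0.564% to 1.64% in PICK1i, with a median of 1.06% (1.01% in the 4 other libraries). In Suv39h1, a histone methyltransferase gene, the retained-intron transcript ENSMUST00000127617 made up 6.74% to 13.3% in saline, with a median of 10.7%, and 2.06% to 9.53% in PICK1i, with a median of 5.98% (7.70% in the 4 other libraries). Both sets of shares overlapped between groups. Assignment of reads to transcripts is itself an estimate, and that error is not in these tests.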

How the data were processed

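Poly(A) RNA of 24 hypothalamus samples was sequenced as 52-base paired reads, per the labels' protocols. The authors deposited estimated counts for 45706 genes and 109617 transcripts, without normalisation. Tools named in the submitters' processing notes are STAR, Salmon and bcl2fastq 2.20.0, with GRCm38 as the build. For their options, the annotation and strand use, the entry is "not given in the sources used here". Rounded counts were used (94.3% of gene values were whole to 0.001). GENCODE M21, which held 45143 of the gene identifiers, gave positions and lengths.

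The 13 libraries were fitted alone, with no covariate, in edgeR 4.0.16 (R 4.3.3). filterByExpr with a minimum count of 10 kept 15407 genes (99.7% of counts). TMM scaling and the two-sided quasi-likelihood test followed, with 11 residual degrees of freedom, a biological coefficient of variation of 12.3% and Benjamini-Hochberg adjustment over all genes or transcripts at 0.05. CPM uses TMM-scaled totals, except at the Slc17a7 and Gh limits. PSD-95i levels come from 21 libraries scaled together. Standard errors derive from the quasi-likelihood F. Transcript use was tested by edgeR's differential splicing (Simes). The procedure was tested on simulated data.

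Members, the 44 gene lists, tests and alternatives were chosen with earlier results of these data known. Named were Pick1, Dlg4, Agrp, Npy, Pomc and Cartpt and, as no gene was called, the 12 with the smallest p in each direction (mean of at least 1 CPM, no clone or model name). From lists of 30 or more the 4 smallest p could be named, from shorter lists any member. A gene that the rule for transcript use would name is not reported here. Among 36 replicate pairs 0 held identical values. Alternatives used limma 3.58.1, DESeq2 1.42.0 and sva 3.50.0. At these totals a gene of a few CPM rests on few counts per library. No promoter was described, since no gene was called.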

Additional observations from a re-analysis of the deposited data

Results flagged for a closer look

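In 152 checks, each of the highest and lowest library of 1 group in 1 measure (CPM of the 30 genes named by rule, mean deviations of the 44 lists, mitochondrial share and length tilt), 4 libraries lay farther from their nearest neighbour than Dixon's 95% limit allows. Chance alone does so in about 1 of 20 groups, a higher rate than 4 of 152, so nothing is read from these 4. PICK1i replicate 5 held 45.2 CPM of Zfp276, with the next PICK1i library at 37.4 CPM. The same library had a mean deviation of -0.49 in the tanycyte list, with the next at -0.11. PICK1i replicate 4 had a mean deviation of -0.25 in the myelin and mature oligodendrocyte list, with the next at 0.02. Saline replicate 7 had a mean deviation of 0.56 in the endothelial and mural list, with the next saline library at 0.01. Whether anything sets these libraries apart was not tested.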

How the results depend on the processing

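The count of 0 called genes was 0 under RLE size factors, a stricter filter, limma-voom with and without sample weights, a random block of consecutive library numbers, 2 surrogate variables, length tilt as a covariate, without mitochondrially encoded genes, with all 8 against 8 libraries and without PICK1i replicates 1, 2 and 5. It was 1 with no filter, 5 by DESeq2 and 3 in the fit with PSD-95i, and 0 to 1 with each of the 13 libraries left out in turn. The replicate numbers showed no clear pairing of libraries. Over 5 shared numbers the correlations of deviations were 0.047, -0.014, 0.166, 0.101 and -0.096, and 1 of 5 correlated best with its own number. So few numbers cannot exclude pairing. With the replicate block 0 genes were called and 1402 had an unadjusted p under 0.05, against 2440. That number was 966 with 2 surrogate variables and 955 with length tilt, both computed from these same counts. The difference in mitochondrial share was 2.55 points with all 8 against 8 libraries (exact permutation p = 0.0207) and 1.3 to 2.61 points with 1 library left out. Transcript and usage counts of called features were 0 in every alternative run. Chosen after seeing the data were the fits with PSD-95i without PICK1i replicates 1, 2 and 5, where 0 genes were called between the inhibitors against 1, and without each library in turn (0 to 2914), and the transcript and list values without named libraries. With 2 surrogate variables the log2 fold change of Pick1 was -0.021, Cartpt -0.13, Pomc -0.18, Npy -0.15 and Dlg4 -0.022, and with length tilt -0.0071, -0.11, -0.19, -0.18 and -0.0084. Without PICK1i replicates 1, 2 and 5 Cartpt was -0.091, Pomc -0.19 and Npy -0.14, and with all 8 against 8 libraries, pituitary included, Pomc was -5.04. Of 807 values of named genes under alternatives, 786 kept direction and side of the threshold and 7 passed it. Most of these genes were chosen by p from these libraries, and none was called in the main fit. Direction and side were thus largely given in advance, and nothing is read from that count. Of 748 list medians 15 moved by more than 1 SD, the larger of the 2 groups' SDs of the list's library scores. PICK1i replicates 1, 2 and 5 are in that SD, so it is wide in lists where they stand apart. The ribosomal median, which went from 0.17 to -0.03 without them, counts as not moved. The cause of such moves was not tested.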

Other observations

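Interferon response genes had a median of -0.02 with all 7 PICK1i libraries, with 14 of 28 above 0, and of -0.19 with the 4 libraries left without replicates 1, 2 and 5, where 24 of 28 lay below 0 and 4 were lower at an unadjusted p under 0.05. PICK1i replicates 1 and 2 had mean deviations of 0.36 and 0.52 against -0.50 to 0.04 in the rest of that group, while saline ran from -0.36 to 0.54. The median was 0.06 without saline replicate 4 and 0.16 without saline replicate 7, so its sign depends on single libraries. Ifih1, a sensor of viral RNA, ran from 6.04 through 7.49 to 9.48 CPM in saline and from 4.23 through 5.71 to 7.40 CPM in PICK1i.

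Among 33 transcription factor genes that define hypothalamic nuclei, 4 were higher and 2 lower, and 5 were higher and 1 lower with the 4 PICK1i libraries left without replicates 1, 2 and 5. The homeodomain gene Dlx5, of GABA neurons, was at 0.38 ± 0.11 and at 0.31 with the 4 other PICK1i libraries. Sox14 was at -0.74 ± 0.22 and at -0.44, and Foxa1 at 0.59 ± 0.25 and at 0.70. No list member passed the test across all genes.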
